A study of Mus musculus with 18 samples.

Results

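The genes described here encode the vacuolar H+-ATPase (V-ATPase), the proton pump of the lysosome, and a set of proteins that sit in the lysosomal membrane or carry proteins to it. Members were every row of the normalized count table whose symbol starts with Atp6v0, Atp6v1 or Atp6ap (27 rows) and 25 further genes listed by name, 52 of 27179 rows in all. Of these, 46 had a mean normalized count of at least 10 over the 18 libraries and entered the tests. The other 6, Atp6v1b1, Atp6v1e2, Atp6v1fnb, Atp6v1g3, Atp6ap1l and Mcoln3, had at most 4 reads in any library.

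RNA was sequenced from mesenchymal stem cells (MSCs, adherent stromal cells flushed from the long bones and expanded at low passage) of male C57BL6 mice. Young libraries came from mice 6 weeks old, and old libraries from mice 18 to 24 months old whose cells were grown alone. Rejuvenated old libraries came from old cells, plated at 100000 per well, that shared medium with young cells for 7 days across a 0.4 µm Transwell membrane, which passes secreted factors but not cells. Each of the 3 groups had 6 libraries. The sample descriptions give the 7 days of culture, 100000 cells per well and 0.4 µm pore for all 3 groups. Old cells facing other old cells were not analysed here, so young partners and partners of any age cannot be told apart. The labels call the libraries biological replicates without saying which mice or cultures they came from, so p-values measure the spread between these libraries.

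The V-ATPase has a membrane sector, V0, that carries protons across the membrane, and a cytosolic sector, V1, that hydrolyses ATP and turns the rotor. The acid it makes activates lysosomal hydrolases and drives export of the products. Heavily glycosylated membrane proteins line the lysosome, while channels, exchangers and transporters move ions, cholesterol and small solutes across it. Many lysosomal genes hold the palindrome TCACGTGA near their start, the core of the CLEAR element that transcription factors of the TFEB family recognise.

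The libraries held between 22936251 and 29559194 reads on genes. The stromal genes Cd44, Pdgfra, Pdgfrb and Col1a1 were expressed in every group, the lowest mean being 2137 for Cd44 in young cells. Thy1 and Nt5e, also used to define MSCs, averaged 198 and 295 in young cells but 1.19 and 15.9 in old cells, and other stromal genes went the opposite way, with Eng at 163 and 7340, Lepr at 36.2 and 378 and Cxcl12 at 9227 and 197374. Of the 11 stromal genes 6 were lower and 5 higher in young than in old cells, and 5 were lower and 3 higher after co-culture. The summed level of 16 macrophage markers was 531 to 598 in young, 16587 to 20573 in old and 16676 to 20364 in rejuvenated old libraries. Ptprc (CD45) and Adgre1 (F4/80) had no read in any young library and averaged 179 and 296 in old cells. Between rejuvenated old and old cells 1 of the 15 macrophage markers tested was higher (Itgam, log2 fold change 0.48) and 0 were lower, with a median of 0.07. Between young and old cells 14 of 15 were lower, with a median of -6.96. Other marker lists also moved after co-culture. Of 6 osteoblast markers 4 were lower and 1 higher, with a median of -0.80 (Ibsp -2.22, Dmp1 -1.92, Bglap -1.46), and of 5 adipocyte markers tested 1 was lower and 3 higher. In young against old cells all 6 osteoblast and all 5 adipocyte markers tested were lower, with medians of -3.83 and -4.89. These marker counts stand against 44.1% lower and 41.6% higher among all genes tested in young against old cells. After co-culture the shares of all genes were 20.6% lower and 21.0% higher. Of 5 endothelial markers only Kdr was tested, and it was lower after co-culture (-0.91) and higher in young cells (3.23). Kdr averaged 9.12 in old cells grown alone and 4.32 after co-culture, near the detection limit and with overlapping ranges. It reached a mean of 10 over all libraries only through the young group, at 85.7, so its fall after co-culture rests on few reads. The part of these cells in the differences below was not tested, and in bulk RNA fewer cells of a type and less RNA per cell cannot be told apart.

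Promoter windows are shown for every member in which the CLEAR core or its inner E-box was found, whether or not that member fell after co-culture. RefSeq promoter windows (GRCm38.p6, 250 bases before to 50 after the start) were found for 41 members, 36 of them tested. TCACGTGA, which reads the same on both strands, was in 7 of the 41 (17.1%), against 304 of 27025 genes (1.12%). Its inner E-box CACGTG, which every TCACGTGA also contains, was in 9 of the 41, against 8.09% of genes. Since many lysosomal genes are known to hold the palindrome, its higher share in a list of such genes is not a finding of these data. In the lines that follow a single copy of the motif is in capitals, TCACGTGA where present and otherwise the first CACGTG. Up to 30 bases are given on each side and at most 20 bases past the start, read 5′ to 3′ in the direction of the gene. Further copies of CACGTG stand in lower case in the flanks of Mcoln1, Clcn7, Clcn6, Cln3, Lamp1 and Atp6v0b.
Atp6v0d1 (chr8:105566045-105566098, minus strand): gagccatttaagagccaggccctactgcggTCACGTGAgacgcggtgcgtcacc
Atp6v1a (chr16:44139354-44139421, minus strand): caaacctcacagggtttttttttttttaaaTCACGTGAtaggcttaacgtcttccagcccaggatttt
Mcoln1 (chr8:3500443-3500510, plus strand): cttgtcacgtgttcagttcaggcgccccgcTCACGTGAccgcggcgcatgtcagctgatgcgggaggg
Clcn7 (chr17:25133367-25133410, plus strand): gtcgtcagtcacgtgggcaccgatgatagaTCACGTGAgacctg
Clcn6 (chr4:148038802-148038869, minus strand): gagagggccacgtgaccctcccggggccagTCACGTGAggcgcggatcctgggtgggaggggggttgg
Cln3 (chr7:126583321-126583388, minus strand): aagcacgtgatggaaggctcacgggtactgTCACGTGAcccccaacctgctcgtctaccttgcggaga
Atp6v0e (chr17:26676368-26676415, plus strand): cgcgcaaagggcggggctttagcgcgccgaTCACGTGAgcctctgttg
Lamp1 (chr8:13159070-13159135, plus strand): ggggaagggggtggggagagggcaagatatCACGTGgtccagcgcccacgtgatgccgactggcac
Atp6v0b (chr4:117887330-117887395, minus strand): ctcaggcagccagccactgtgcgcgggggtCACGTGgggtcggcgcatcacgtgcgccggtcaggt
The motif centre lay between 128 bases before the start (Atp6v1a) and 10 bases after it (Clcn7). Lamp1 held CACGTG 4 times and Atp6v0b 2 times. Of the 7 members with TCACGTGA, Atp6v0d1, Atp6v1a, Mcoln1 and Clcn7 fell in rejuvenated old cells and Clcn6, Cln3 and Atp6v0e were not called. Over all tested members 27 of 46 (58.7%) fell, so the share among these 7 lay near that of all members. Lamp1 and Atp6v0b, with the E-box alone, fell. Atp6v0a1 and Ctns, which also fell, held neither motif in their windows, and Laptm4b, with the largest fall, had no promoter entry. A match is a description of the letters and does not show binding.

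The first question was whether contact with the factors of young cells changed these transcripts in old cells. After co-culture 27 of the 46 members were lower than in old cells grown alone and 2 were higher, by limma on log2(normalized count + 1) at a Benjamini-Hochberg adjusted p under 0.05 over 14353 genes. Across all genes tested 20.6% were lower and 21.0% higher, 41.6% in either direction. The counts by role group below stand against the same shares, and each rests on few members. The median log2 fold change of the members was -0.21, against 0.01 over all genes. All 6 rejuvenated old libraries lay below all 6 old ones for 23 members, and above them for 0. Over all genes tested, 11.6% lay wholly below and 10.4% wholly above. The falls were modest in size, the largest being that of Laptm4b at -0.57. The plot of member levels by library shows them in each role group.

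**Figure D1:**
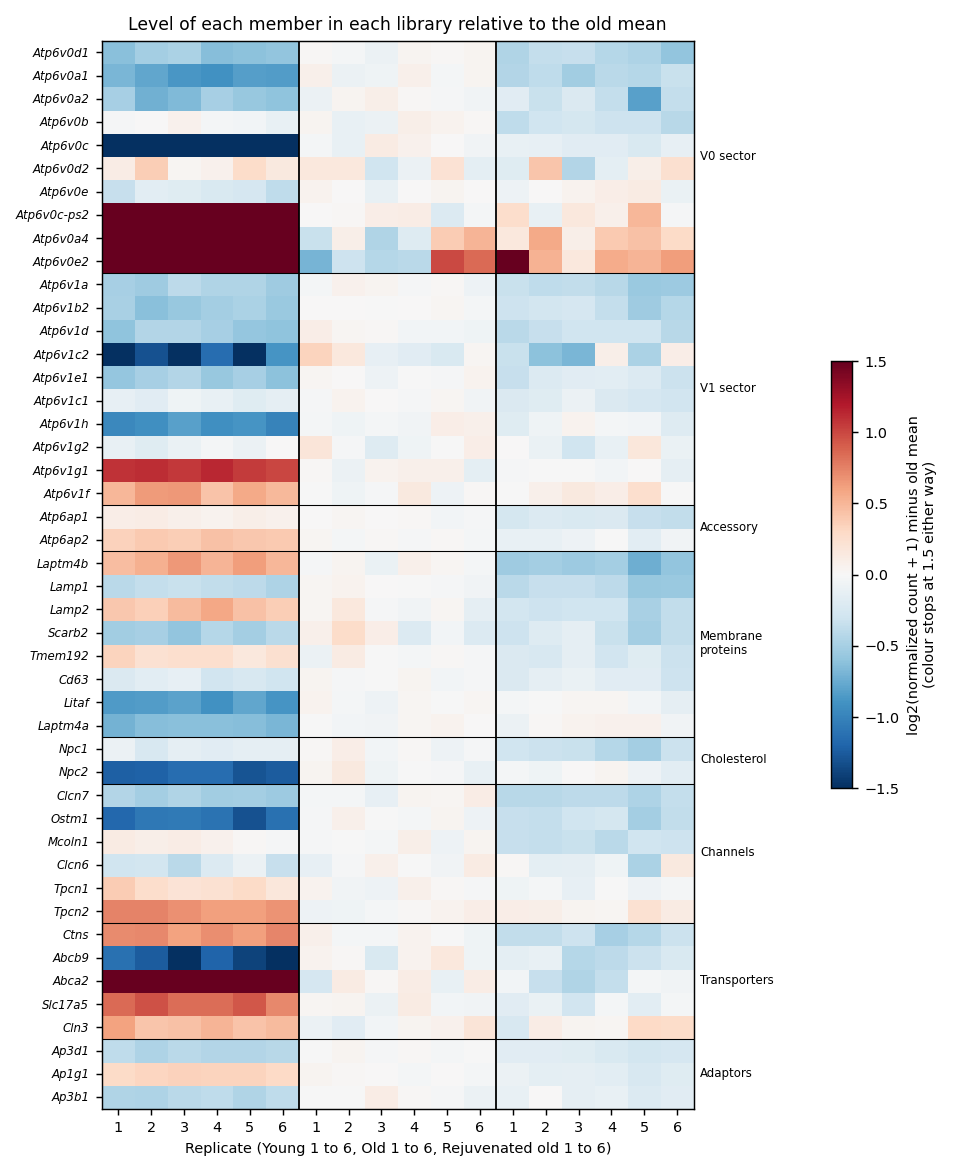
Level of the 46 tested members (rows, grouped by role) in each of the 18 libraries (columns), as log2(normalized count + 1) minus the mean of the 6 old libraries; blue is lower, red higher, and the colour stops at 1.5 either way. In rejuvenated old libraries most rows are pale blue, 27 of the 46 passing the test, while in young libraries both colours are strong.

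In the V0 sector 5 of 10 tested members fell after co-culture and 1 rose. The 10 include Atp6v0c, which fell, and its processed copy Atp6v0c-ps2 as separate rows, although the split of reads between them is uncertain. Atp6v0d1, the subunit that couples the membrane rotor to the central stalk, ranged from 6533 to 7146 (median 7009) in old libraries, from 4598 to 5466 (median 5114) in rejuvenated old and from 4471 to 4984 (median 4559) in young. The old libraries stood above all others. Its log2 fold change after co-culture was -0.44 (95% interval -0.52 to -0.36; limma adjusted p = 8.36e-09). Atp6v0a1, one of the alternative large subunits that form the proton half-channels with the rotor, ran from 4152 to 4661 (median 4419) in old, 3080 to 3495 (median 3301) in rejuvenated old and 2353 to 2750 (median 2478) in young libraries, so the groups stood apart in that order. It fell by 0.42 on the log2 scale after co-culture (95% interval -0.50 to -0.34; limma adjusted p = 2.18e-08). Atp6v0a2, another of these large subunits, had a mean of 1507 ± 64.0 (SD, n = 6) in old and 1173 ± 170 in rejuvenated old cells, a change of -0.37. Atp6v0b, a proteolipid of the rotor, had 3613 ± 190 and 2873 ± 116 (-0.33), with no overlap between the groups. Atp6v0e, a small subunit, averaged 4631 ± 177 and 4697 ± 302, a difference of 0.02 (95% interval -0.07 to 0.11) that was not called.

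Atp6v0e2, a second gene for the small e subunit, carried the widest age difference of the pump. Young libraries held 743 to 827 (median 788), old 4.30 to 16.1 (median 5.68) and rejuvenated old 8.56 to 29.9 (median 11.5). The old and rejuvenated old ranges overlapped, and both lay far below young. Young cells exceeded old by 6.52 on the log2 scale (95% interval 5.95 to 7.09; limma adjusted p = 3.59e-16). The value after co-culture, 0.70 above old (95% interval 0.13 to 1.27; limma adjusted p = 0.0441), passed the threshold in 5 of the 18 fits that left out 1 library, those without old replicate 5 or 6 or without rejuvenated old replicate 2, 3 or 5. Rejuvenated old replicate 1 held the highest value of its group. Atp6v0a4, known as the kidney form of the large subunit, was at 117 ± 14.5 in young MSCs, 32.4 ± 9.19 in old MSCs and 39.8 ± 5.16 in rejuvenated old cells, 1.86 higher in young than in old. Atp6v0d2, a form known from osteoclasts and macrophages, was low in every group, at 55.5 ± 5.17, 49.6 ± 7.07 and 50.1 ± 11.0, and was called in no comparison. Of the 10 osteoclast markers listed, Acp5, Ocstamp, Dcstamp and Calcr averaged below 7 in all groups, while others were expressed, led in old cells by Ctsk, at 4428 against 130 in young and 4283 in rejuvenated old cells. The list summed to 1548 to 1624 in young libraries, 5496 to 5786 in old and 4752 to 5773 in rejuvenated old, and most of the old sum was Ctsk. In young against old cells 3 of the 6 tested genes were lower and 3 higher, with a median of -0.09. Mmp9 went against Ctsk, at 244 in young and 30.9 in old cells, and Oscar and Nfatc1 were also higher in young. After co-culture 3 of the 6 were lower and 0 higher. Among all genes tested 44.1% were lower and 41.6% higher in young against old cells, and 20.6% and 21.0% after co-culture. The part of this list in the results was not tested.

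Atp6v0c, the main rotor proteolipid, has a processed copy with its own row, Atp6v0c-ps2, and was examined for that reason after its values were seen. Atp6v0c itself ran from 553 to 724 (median 628) in young, 3066 to 3602 (median 3279) in old and 2823 to 3054 (median 2978) in rejuvenated old libraries. The copy showed the opposite age order, with 2486 to 2818 in young, 181 to 225 in old and 193 to 294 in rejuvenated old libraries. The copy thus held 80.6% ± 1.99 of the reads of the pair in young MSCs, 5.93% ± 0.427 in old MSCs and 7.28% ± 1.22 in rejuvenated old cells (SD, n = 6 each). Added together, the pair gave 3260 ± 106, 3514 ± 200 and 3196 ± 68.1. Fitted as 1 gene, young lay below old by a log2 difference of -0.11 (limma adjusted p = 0.00597), against -2.39 for the Atp6v0c row alone. After co-culture the sum changed by -0.14 (limma adjusted p = 0.00271). Since near-identical copies share reads, the 2 single rows are uncertain; leaving out old replicate 3 ended the call of the Atp6v0c row after co-culture (limma adjusted p = 0.0552).

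**Figure D2:**
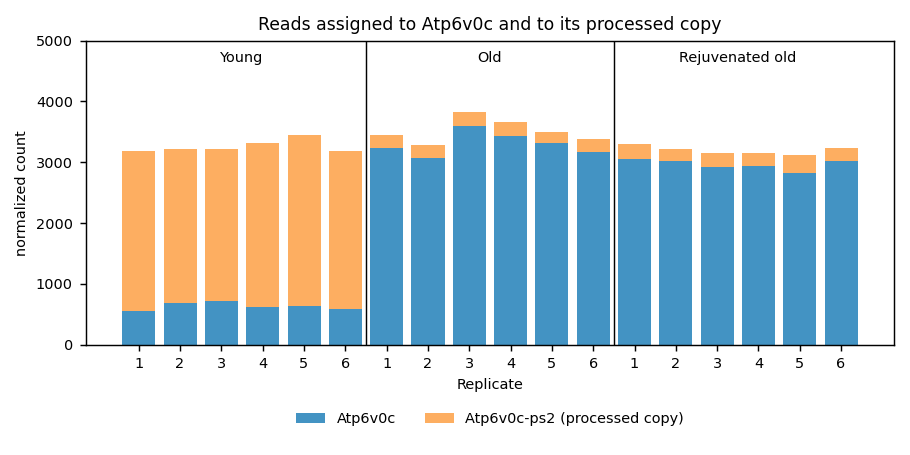
Normalized counts assigned to Atp6v0c (blue) and stacked on it those of its processed copy Atp6v0c-ps2 (orange) in each library. The split between the rows differs between young libraries, with 80.6% on the copy, and old ones, with 5.93%, while the bar heights stay between 3117 and 3824.

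In the V1 sector 5 of 10 tested members fell after co-culture and 0 rose, against 20.6% and 21.0% of all genes tested. Atp6v1a, the catalytic subunit, ranged from 4031 to 4449 (median 4243) in old, 2888 to 3364 (median 3221) in rejuvenated old and 2924 to 3224 (median 3051) in young libraries. Old stood above both other groups, which overlapped. The change after co-culture was -0.43 (95% interval -0.52 to -0.35; limma adjusted p = 8.81e-09), and rejuvenated old and young cells differed by 0.04 (95% interval -0.04 to 0.12). Atp6v1d, part of the rotating central stalk, ran from 3111 to 3490 (median 3236) in old, 2440 to 2644 (median 2600) in rejuvenated old and 2142 to 2403 (median 2245) in young. It fell by 0.35 on the log2 scale (95% interval -0.43 to -0.27; limma adjusted p = 1.48e-07). The nucleotide-binding partner Atp6v1b2 went from 3346 ± 48.5 to 2613 ± 184 (-0.36), and the stator subunits Atp6v1e1 and Atp6v1c1 changed by -0.23 and -0.21.

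The remaining V1 members were not called after co-culture. Atp6v1h, a regulatory subunit of V1, averaged 3369 ± 163 in old and 3195 ± 210 in rejuvenated old cells. Atp6v1f, a small stalk subunit, and Atp6v1g1, a stator subunit, were at 3400 ± 185 and 629 ± 41.1 in old cells and 3635 ± 249 and 614 ± 21.4 in rejuvenated old. Both were higher in young cells, at 4968 ± 301 and 1321 ± 43.3, by 0.55 and 1.07 on the log2 scale. Atp6v1g2, a form of subunit G known from neurons, had 141 ± 13.0 in old and 135 ± 15.0 in rejuvenated old cells. Atp6v1c2, a tissue-restricted form of subunit C, was near the detection limit, with 5.44 to 12.4 (median 7.68) in young, 20.1 to 30.1 (median 22.8) in old and 14.3 to 25.5 (median 17.6) in rejuvenated old libraries. It was lower in young than in old cells by a log2 difference of -1.49 (95% interval -1.93 to -1.04; limma adjusted p = 1.17e-06).

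Both accessory proteins fell after co-culture and were higher in young than in old cells, Atp6ap1 by 0.08, which became -0.07 relative to the median of its chromosome, and Atp6ap2 by 0.39. Atp6ap1, which helps assemble the pump, ran from 9627 to 10120 (median 9911) in old, 7667 to 8559 (median 8331) in rejuvenated old and 10293 to 10718 (median 10485) in young libraries. The rejuvenated old group was the lowest, without overlap. It fell by 0.27 on the log2 scale against old (95% interval -0.33 to -0.21; limma adjusted p = 1.19e-07). Atp6ap2, also known as the prorenin receptor, ran from 3101 to 3238 (median 3167) in old, 2833 to 3143 (median 2965) in rejuvenated old and 4028 to 4284 (median 4145) in young. Old and rejuvenated old overlapped, and the change was -0.09 (limma adjusted p = 0.0125). The sum over the 24 V0 and V1 rows was 51179 to 53082 in old, 41874 to 45914 in rejuvenated old and 41099 to 44286 in young libraries.

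**Figure D3:**
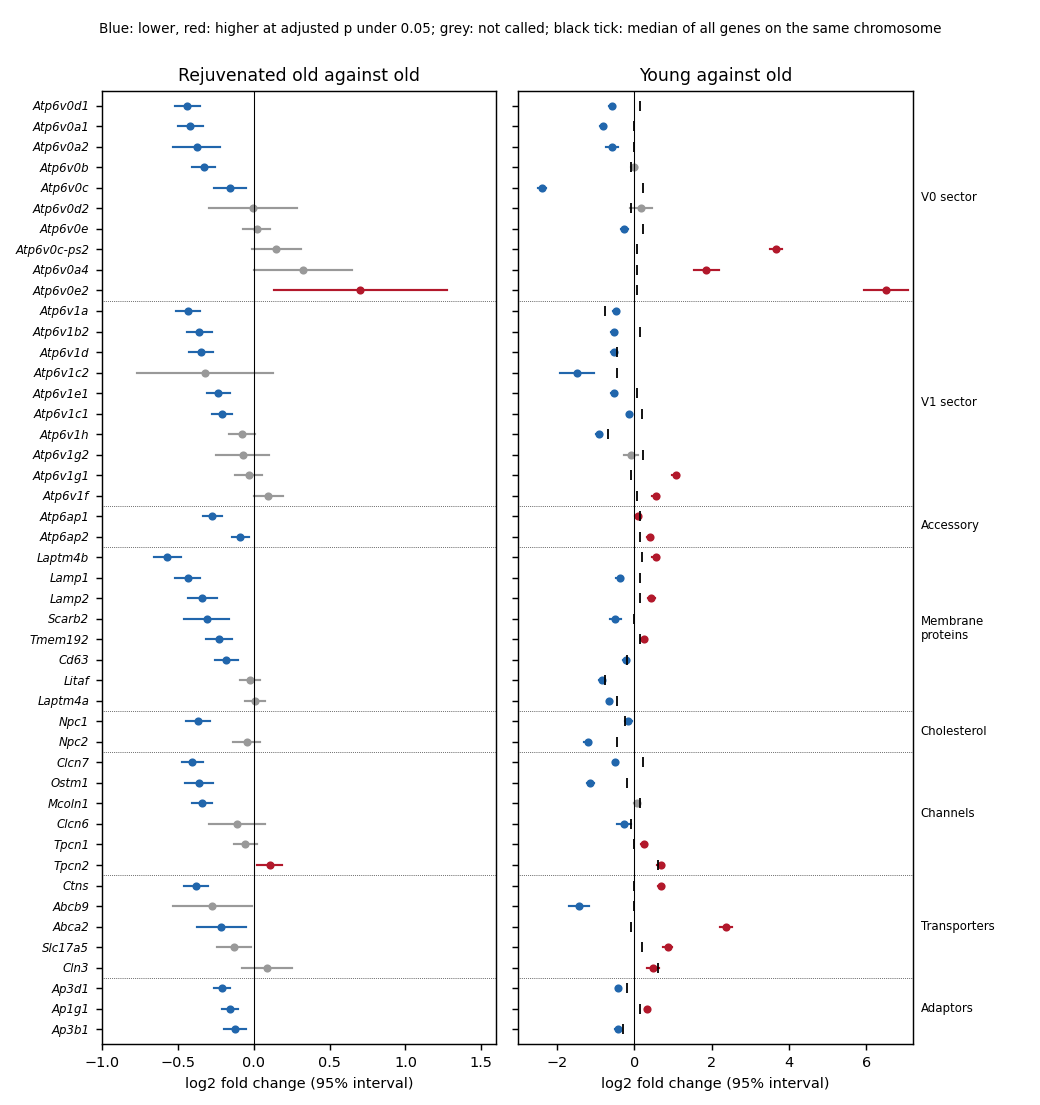
Log2 fold changes with 95% intervals of the 46 tested members by role, for rejuvenated old against old (left) and young against old (right); blue marks lower and red higher at adjusted p under 0.05, grey not called, and the black ticks on the right the median of all genes on the same chromosome. On the left 27 members lie below 0 as called, and on the right 25 lie below and 17 above.

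Most pump subunits with several genes were carried by 1 gene, as judged by normalized count per kilobase of exon. Atp6v0d1, Atp6v1b2, Atp6v1c1 and Atp6v1e1 each held over 98% of their kind in every group. The a subunits were mixed. Tcirg1, the a3 gene, which the symbol rule does not take in, held 56.2% ± 1.87 of the level per kilobase in young MSCs, 51.3% ± 2.97 in old MSCs and 57.7% ± 2.86 in rejuvenated old cells. Atp6v0a1 held 30.2% ± 1.81, 36.3% ± 2.56 and 31.1% ± 2.27, and Atp6v0a2 between 10.8% and 12.1% on average. Tcirg1 itself was not called after co-culture, at a log2 difference of -0.03. For subunit e, Atp6v0e2 held 23.0% to 25.9% in young libraries against means of 0.287% ± 0.168 in old and 0.476% ± 0.287 in rejuvenated old cells. For subunit G, Atp6v1g2 held 4.36% ± 0.277, 9.27% ± 1.13 and 9.02% ± 0.883.

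The membrane glycoproteins and small membrane proteins held the largest single fall, with 6 of 8 lower after co-culture and 0 higher. Lamp1, one of the most abundant proteins of the lysosomal membrane, ranged from 40737 to 43872 (median 42304) in old, 28523 to 33410 (median 32108) in rejuvenated old and 30823 to 33729 (median 32501) in young libraries. The old libraries were the highest without overlap, and the other 2 groups overlapped. Lamp1 fell by 0.44 on the log2 scale after co-culture (95% interval -0.52 to -0.35; limma adjusted p = 1.42e-08). Its relative Lamp2 moved differently with age. It had 15172 ± 1024 in old, 11980 ± 639 in rejuvenated old and 20527 ± 1213 in young cells, a change of -0.34 after co-culture and 0.44 in young against old.

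Laptm4b, a lysosomal membrane protein with several membrane spans, ran from 1921 to 2163 (median 2058) in old, 1237 to 1446 (median 1410) in rejuvenated old and 2824 to 3220 (median 2940) in young libraries. The 3 groups stood apart, with rejuvenated old the farthest from young. It fell by 0.57 on the log2 scale after co-culture (95% interval -0.66 to -0.48; limma adjusted p = 3.77e-10) and was 0.55 higher in young than in old cells. Its paralog Laptm4a was not called after co-culture, with 32821 ± 905 in old and 33034 ± 1459 in rejuvenated old cells, and was lower in young, at 20869 ± 454. Scarb2, the receptor that carries glucocerebrosidase to the lysosome, Tmem192 and the tetraspanin Cd63 changed by -0.31, -0.23 and -0.18 after co-culture. Litaf, a small protein of endosomal and lysosomal membranes, ran from 6255 to 6849 (median 6682) in old, 6036 to 6773 (median 6544) in rejuvenated old and 3523 to 3852 (median 3679) in young. Old and rejuvenated old overlapped, and young lay lower by a log2 difference of -0.85 (limma adjusted p = 5.33e-17), on chromosome 16, where the median of all genes was -0.75.

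The 2 cholesterol export proteins parted. Npc1, the membrane protein that receives cholesterol from Npc2, ran from 1648 to 1865 (median 1743) in old, 1222 to 1415 (median 1389) in rejuvenated old and 1471 to 1635 (median 1580) in young libraries. Rejuvenated old was the lowest group, without overlap, and the change was -0.37 (95% interval -0.45 to -0.29; limma adjusted p = 1.26e-07). Npc2, the soluble carrier in the lumen, ran from 29178 to 34854 (median 31172) in old, 28190 to 32234 (median 30504) in rejuvenated old and 12781 to 14253 (median 13524) in young. Old and rejuvenated old overlapped, with a difference of -0.05 (95% interval -0.13 to 0.04), and young was lower by a log2 difference of -1.21 (limma adjusted p = 7.38e-18).

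Of the 6 channels and exchangers tested, 3 fell and 1 rose after co-culture. Clcn7, the chloride-proton exchanger of the lysosome, ran from 3700 to 4327 (median 4019) in old, 2918 to 3144 (median 3033) in rejuvenated old and 2743 to 2950 (median 2819) in young libraries. Old stood above the other groups, which overlapped, and the change was -0.41 (95% interval -0.47 to -0.34; limma adjusted p = 2.31e-09). Ostm1, the beta subunit that Clcn7 needs, ran from 2685 to 2974 (median 2812) in old, 1980 to 2349 (median 2217) in rejuvenated old and 1140 to 1353 (median 1306) in young. All 3 groups stood apart, and the changes were -0.36 after co-culture (limma adjusted p = 7.07e-07) and -1.14 in young against old. Mcoln1, the calcium channel TRPML1, ran from 2018 to 2252 (median 2110) in old, 1602 to 1735 (median 1683) in rejuvenated old and 2109 to 2309 (median 2238) in young libraries. Rejuvenated old lay below both groups, which overlapped each other, with a change of -0.34 against old (95% interval -0.41 to -0.27; limma adjusted p = 2.24e-08).

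Among the 2-pore channels, Tpcn1 had 1424 ± 58.1 in old and 1369 ± 39.5 in rejuvenated old cells and was not called. Tpcn2 rose from 900 ± 43.8 to 968 ± 49.7, by 0.10 on the log2 scale (95% interval 0.02 to 0.19; limma adjusted p = 0.0458), with overlapping groups. That call was kept in 8 of the 18 fits that left out 1 library, those without young replicate 1, 2, 4 or 5, old replicate 5 or 6, or rejuvenated old replicate 3 or 4. Clcn6, an exchanger of late endosomes, was at 172 ± 10.3 and 161 ± 22.3 and was not called.

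Of the 5 solute transporters, 2 fell after co-culture and 0 rose, against 20.6% and 21.0% of all genes tested. Ctns, the cystine exporter, ran from 1111 to 1223 (median 1143) in old, 820 to 936 (median 898) in rejuvenated old and 1758 to 1923 (median 1888) in young libraries. The groups stood apart, and Ctns fell by 0.38 on the log2 scale after co-culture (95% interval -0.46 to -0.30; limma adjusted p = 4.55e-08) and was 0.68 higher in young than in old cells. Abca2, a lipid transporter, ran from 247 to 320 (median 307) in old, 214 to 287 (median 257) in rejuvenated old and 1428 to 1573 (median 1527) in young. Its young libraries lay 2.36 above old on the log2 scale (95% interval 2.20 to 2.53; limma adjusted p = 2.95e-18). The change after co-culture, -0.21 (limma adjusted p = 0.0313), came from overlapping groups and was not called without old replicate 2, 3, 4 or 6 or without rejuvenated old replicate 2, 3 or 4. The sialic acid exporter Slc17a5, the peptide transporter Abcb9 and Cln3, a lysosomal protein lost in juvenile neuronal ceroid lipofuscinosis, were not called after co-culture, at -0.13, -0.27 and 0.09.

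All 3 adaptor subunits, which sort cargo into vesicles bound for the lysosome, fell after co-culture. Ap3d1, of the AP-3 complex, ran from 8314 to 8717 (median 8457) in old, 7016 to 7537 (median 7359) in rejuvenated old and 6146 to 6512 (median 6307) in young libraries. The groups stood apart in that order, and the change was -0.21 (95% interval -0.27 to -0.16; limma adjusted p = 7.74e-07). Ap1g1, of AP-1, ran from 3462 to 3635 (median 3551) in old, 2997 to 3323 (median 3199) in rejuvenated old and 4337 to 4486 (median 4455) in young. Rejuvenated old was again the lowest group, with a change of -0.16 (limma adjusted p = 4.50e-05). Ap3b1 changed by -0.12, with overlapping groups.

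**Figure D4:**
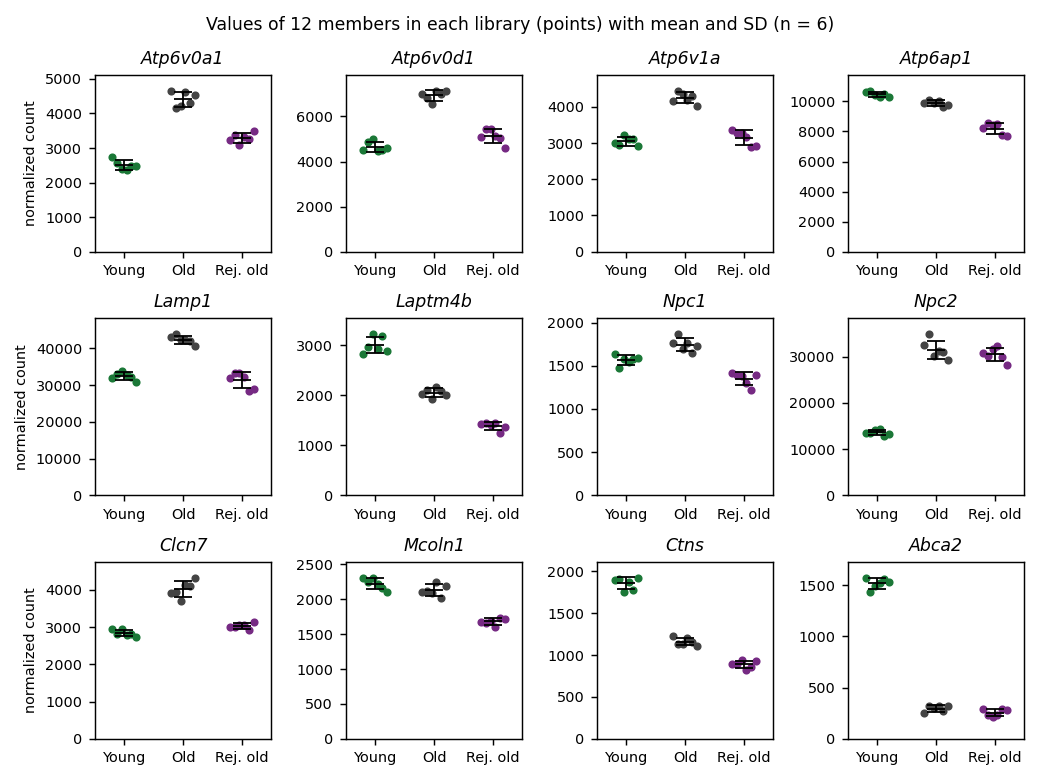
Normalized counts of 12 members in each library (points), with the mean and SD of the 6 libraries of each group (black); each vertical axis starts at 0. Atp6v0a1, Atp6v0d1, Atp6v1a, Lamp1 and Clcn7 are highest in old cells, while Atp6ap1, Laptm4b, Npc1, Mcoln1 and Ctns are lowest in rejuvenated old cells.

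The second question was how these transcripts differed with donor age. In young cells 25 of the 46 members were lower than in old and 17 higher, against 44.1% lower and 41.6% higher among all genes tested (85.7% in either direction), so the shares of members lay near those of all genes. The median of the members was -0.19, against -0.02 over all genes. Atp6v0c (lower) and its copy (higher), whose split of reads is uncertain, both enter these counts as separate rows. The roles differed in their counts. In the V1 sector 7 of 10 were lower and 2 higher, with a median of -0.50, and 4 of the 5 transporters were higher, with a median of 0.68. Whole chromosomes were displaced in this comparison, with medians over all genes of -0.75 on chromosome 16, -0.69 on chromosome 1, -0.46 on chromosome 12, -0.30 on chromosome 13 and 0.61 on chromosome 7. After co-culture no chromosome had a median farther than 0.06 from 0. Members on the displaced chromosomes were Atp6v1a and Litaf (16), Atp6v1h (1), Atp6v1d, Atp6v1c2, Npc2 and Laptm4a (12), Ap3b1 (13), and Tpcn2 and Cln3 (7). Of these, all but Atp6v1c2 and Npc2 lay within 0.3 of the median of their chromosome. Relative to that median Atp6v1a turned from -0.48 to 0.27. The 7 V1 members lower in young cells thus include Atp6v1a, Atp6v1h, Atp6v1d and Atp6v1c2, all on chromosomes displaced downward. The part of this displacement in the V1 count was not tested.

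The third question was which members still differed from young cells after co-culture. Rejuvenated old cells had 21 members below young and 19 above, against 41.5% and 44.1% of all genes tested (85.6% in either direction), with a median of -0.02 over the members and 0.03 over all genes. The same libraries serve in both other comparisons. The 6 members not called were Lamp1 (-0.05), Cd63 (0.04), Atp6v1a (0.04), Atp6v1g2 (0.01), Atp6v0d2 (-0.17) and Clcn6 (0.16). Of these, 3 turned and passed the threshold relative to the median of their chromosome, Atp6v1a at -0.72, Cd63 at -0.16 and Lamp1 at 0.10, and Cd63 also did so with quantile normalization (-0.11). Lamp1 was called lower with equal library totals and with quantile normalization, Atp6v0d2 was called lower with quantile normalization, and Atp6v1g2 was called higher relative to the median of its chromosome. Clcn7 lay above young by 0.09 (95% interval 0.02 to 0.16; limma adjusted p = 0.0142) and Atp6v0d1 by 0.14 (95% interval 0.06 to 0.22; limma adjusted p = 0.00252), and neither was called when libraries were scaled to equal totals. Atp6v0c and its copy, whose split of reads is uncertain, differed from young by 2.23 and -3.51 as single rows, and their sum by -0.03 (limma adjusted p = 0.432), which was not called. Of the other members, farthest below young were Atp6v0e2 (-5.81), Abca2 (-2.58), Atp6v0a4 (-1.54), Laptm4b (-1.11), Atp6v1g1 (-1.10) and Ctns (-1.06). Farthest above were Npc2 (1.17), Abcb9 (1.17), Atp6v1c2 (1.16) and Atp6v1h (0.84).

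Levels per kilobase of exon spanned more than 3 orders of magnitude over the 45 tested members with an exon length. Averaged over all libraries the highest was Laptm4a, followed by Lamp1, Cd63, Npc2, Atp6v1f, Atp6ap1, Atp6v0d1, Lamp2, Atp6v0b and Atp6ap2. This order depends on the length used. By the longest transcript instead of all exons the first 5 were unchanged, Lamp2 rose to rank 6, Litaf entered at rank 10 and Atp6ap2 fell to rank 14. By exon length, Laptm4a had a level of 11771 ± 256 per kilobase in young MSCs, 18512 ± 510 in old MSCs and 18632 ± 823 in rejuvenated old cells. Lamp1 had 12127 ± 382, 15840 ± 400 and 11737 ± 815, so the order of these 2 genes in young cells rests on a gap smaller than 1 SD of Lamp1. The lowest was Atp6v1c2, at 3.75 ± 1.29, 11.0 ± 1.78 and 8.84 ± 2.27. Summed over all 52 members, normalized counts were 257733 to 268891 in old, 216536 to 237743 in rejuvenated old and 205136 to 219054 in young libraries.

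**Figure D5:**
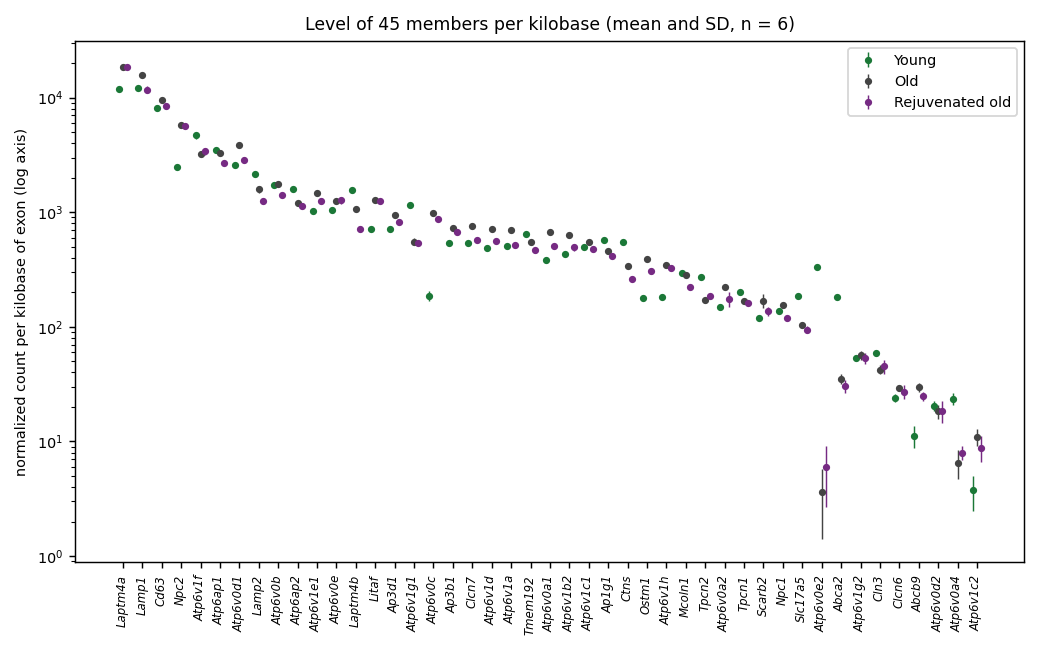
Normalized count per kilobase of exon (log axis) of 45 tested members, ordered by their mean over all libraries; points are group means and bars SD (n = 6), green for young, grey for old and purple for rejuvenated old. Laptm4a and Lamp1 are at the top and Atp6v1c2 at the bottom, and Atp6v0e2 shows the widest gap between young and old.

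Other genes of the pathway, from lists that hold no member, gave counts in the same comparison after co-culture. Of 12 tested genes of V-ATPase assembly and regulation 4 fell and 0 rose, with a median of -0.03. They were Wdr7 (-0.31), part of the rabconnectin complex that acts on the pump, Ncoa7 (-0.28), Rogdi (-0.19) and Tm9sf4 (-0.18). Of 43 tested genes listed as other lysosomal membrane proteins 23 fell and 3 rose, with a median of -0.15. Among those that fell were the amino acid transporter Slc36a1 (-0.65), Mfsd1 (-0.56), the ATP-gated channel P2rx4 (-0.40) and Cd68 (-0.32). Those that rose were Tmem9 (0.43), Rnf152 (1.14) and Tmem63a (0.15). Rnf152 was near the detection limit, with a mean of 9.80 in old cells grown alone, 23.0 after co-culture and 4.93 in young cells. It reached a mean of 10 over all libraries only through the rejuvenated old group. Its rise thus rests on few reads, although the old and rejuvenated old ranges did not overlap. The list also holds Plin2, a coat protein of lipid droplets, which is counted among those that fell (-0.32). Laptm5, which is also in the macrophage list, averaged 0.54 in young and 1153 in old cells and was not called after co-culture. Of 22 tested genes listed as other adaptor and tethering subunits 10 fell and 3 rose, with a median of -0.13. That list also holds the receptors Igf2r, M6pr and Sort1. The mannose 6-phosphate receptor Igf2r, which carries hydrolases to the lysosome, fell by 0.66 on the log2 scale, from 5039 to 3213, while M6pr, the other receptor of that kind, rose by 0.15. These counts stand against 20.6% lower and 21.0% higher among all genes tested. In young against old cells the same lists gave 11 lower and 0 higher, 27 lower and 14 higher, and 10 lower and 11 higher, against 44.1% and 41.6% of all genes. The last list lay near those shares.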

How the data were processed

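Per the labels and the study's methods, the authors made stranded mRNA libraries, aligned reads to mm10 with HISAT2, used StringTie and featureCounts, and deposited normalized counts, a depth-scaled signal of reads per gene divided by 1 DESeq2 size factor per library. Tool versions, annotation and strand setting are not given in the sources used here. Whole reads were recovered by dividing by the value of 1 read (100% of values whole, the largest departure being 5.55e-05 of a read).

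Genes with a mean of at least 10 (14353) were fitted on log2(normalized count + 1) with limma 3.58.1 in R 4.3.3, all 18 libraries, 1 mean per group and a prior variance following the mean. Tests were two-sided, Benjamini-Hochberg adjusted and called under 0.05. DESeq2 1.42.0 and edgeR 4.0.16 on the recovered reads were alternatives and called 3210 and 3080 genes lower and 3135 and 3133 higher after co-culture, against 2955 and 3016. Replicates of a group differed by more than sampling noise (chi-square over degrees of freedom 2.60 to 23.7). The code of the fits was run on simulated reads with the same dispersion for all genes and few changed genes, unlike these data. That run therefore does not measure the error rates of the tests here. Exon lengths came from GENCODE vM21 and positions and promoters from RefSeq (GRCm38.p6). No promoter entry was found for Tpcn1, Laptm4b, Atp6v0d2, Atp6v1g1, Atp6ap1l, Atp6v0c-ps2, Atp6v0a2, Atp6v1c1, Npc1, Atp6v1b2 and Atp6v1h.

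The members, gene lists and marker lists were chosen with earlier results of these data known. Full values are given, in each role group, for the 2 tested members with the smallest p after co-culture and the 1 with the largest difference between young and old; other genes are named with fewer values. Alternatives are in the closing section. Members of the pathway lists are named by their values and were chosen after these were seen.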

Additional observations from a re-analysis of the deposited data

Results flagged for a closer look

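In 138 sets of 6 libraries (46 members in 3 groups), 3 held a library that stood apart from the others by Dixon's ratio of gap to range above its 95% critical value, where chance flags about 1 in 20. Atp6v0a2 was lowest in rejuvenated old replicate 5, at 853, with the next library at 1177 and the highest at 1334. Atp6v0e was lowest in old replicate 3, at 4298, with the next at 4631 and the highest at 4787. Atp6v0e2 was highest in rejuvenated old replicate 1, at 29.9, with the next at 12.3 and the lowest at 8.56.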

How the results depend on the processing

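The count of members lower after co-culture, 27, was 22 to 29 over all alternatives, 28 with DESeq2 and with edgeR, and 26 to 28 when 1 library was left out. The other counts stayed within 1.5 times, at 18 to 25 lower and 15 to 19 higher in young against old (25 and 17 to 18 when 1 library was left out), and 19 to 24 lower and 13 to 20 higher in rejuvenated old against young (20 to 21 and 18 to 20). The exception was the count of members higher after co-culture, 2. It was 0 without a filter, with equal totals, with only the 2 groups, with edgeR, at adjusted p under 0.01 and relative to the chromosome median, and 1 with a pseudocount of 10, an equal 75th percentile, a single prior variance, DESeq2, an absolute fold change of at least 0.2 and without chromosomes 1, 7, 12 and 16. Without 1 library it was 0 to 3. The cause was not tested.

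With a replicate block this count was 0 and the other counts were unchanged (27 lower; 25 and 17; 21 and 19). Numbers did not pair the libraries. Same-numbered pairs had deviation correlations of -0.15 to 0.07, 0 of 18 over 0.1, and 2 of 36 correlated best with their own number.

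Relative to the median of the own chromosome, by construction, some members turned. In young against old these were Atp6v1a (0.27), Mcoln1 (-0.0837), Npc1 (0.0809), Atp6ap1 (-0.0719) and Cln3 (-0.13). In rejuvenated old against young they were Atp6v1a (-0.72), Atp6v1c1 (0.14), Atp6v1d (-0.27), Ap3b1 (-0.00463), Cd63 (-0.16), Lamp1 (0.10) and Cln3 (0.17). Quantile normalization also turned Cd63 there (-0.11). Of the turned values, those of Npc1, Ap3b1 and Cln3 were not called and the others were. By the longest transcript 9 of the 10 members with the highest level per kilobase were the same. Against young, Atp6v1c1 lost its call without young replicate 3 or rejuvenated old replicate 5 or 6, and Scarb2 without young replicate 3 or rejuvenated old replicate 2 or 3.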
